A study of Mus musculus with 4 samples.

Results

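The phagocyte NADPH oxidase was described through 5 genes, Cybb, Cyba, Ncf1, Ncf4 and Rac2, taken by symbol from the raw count table of each library. They are 5 of the 25239 gene symbols counted, and all 5 were among the 13357 genes with a mean of at least 10 reads over the 4 libraries, the minimum used for comparing genes. RNA was taken from B16 tumors, a transplantable mouse melanoma, growing under the skin of B6 mice. All mice received CTX, an agent the labels do not spell out, on the day before ACT, which is not spelled out either. Treatment was given on day 7 and tumors were collected 12 days after ACT. Each of the 4 groups is represented by 1 library.

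The CTX library came from mice that received neither T cells nor virus, and its label states an injection of PBS into the left tumor. For the library called MV left tumor, free MV was injected into the left tumor and TRP-1 T cells were given by vein. The column headers spell MV as MYXV. The remote tumor library came from the right tumors of those treated mice, which were not injected. For TRP-1MV, the T cells themselves carried MV and were given by vein, and the labels do not say which flank was sampled. The labels state n = 2, each group has 1 column, and whether animals were pooled is not stated. The labels also describe mice given T cells alone, a group not analysed here.

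The oxidase makes superoxide in the phagosomes of neutrophils and macrophages. Its catalytic subunit gp91phox (Cybb) and its partner p22phox (Cyba) sit in the membrane, while p47phox (Ncf1) and p40phox (Ncf4) wait in the cytosol with a Rac GTPase and join the membrane core when the cell is activated. Loss of the catalytic, membrane or organizing subunits causes chronic granulomatous disease, an immune deficiency with recurrent infections.

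The upstream sequences of the membrane subunits and of Ncf1 are shown because the 2 membrane genes, whose proteins form 1 complex, had unlike ratios between tumors. Each sequence is the 250 bases before the transcript start, read 5′ to 3′ on the gene's strand from RefSeq on GRCm38.p6, at chrX:9469325-9469574 for Cybb, chr8:122432941-122433190 for Cyba and chr5:134229626-134229875 for Ncf1, all on the minus strand. Capitals mark the letters CCAAT, searched on both strands (CCAAT or ATTGG). The RefSeq start of Cybb lies inside the longer gene model that GENCODE gives. The Ncf4 and Rac2 promoters are not shown.
Cybb: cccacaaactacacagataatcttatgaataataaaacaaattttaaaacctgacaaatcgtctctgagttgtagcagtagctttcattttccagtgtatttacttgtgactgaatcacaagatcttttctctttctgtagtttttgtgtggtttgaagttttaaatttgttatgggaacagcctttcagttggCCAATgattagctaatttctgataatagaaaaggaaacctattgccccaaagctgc
Cyba: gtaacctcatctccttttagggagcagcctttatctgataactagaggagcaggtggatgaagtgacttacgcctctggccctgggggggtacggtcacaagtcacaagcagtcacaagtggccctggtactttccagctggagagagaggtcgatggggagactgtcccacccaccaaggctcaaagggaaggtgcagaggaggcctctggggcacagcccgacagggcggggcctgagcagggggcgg
Ncf1: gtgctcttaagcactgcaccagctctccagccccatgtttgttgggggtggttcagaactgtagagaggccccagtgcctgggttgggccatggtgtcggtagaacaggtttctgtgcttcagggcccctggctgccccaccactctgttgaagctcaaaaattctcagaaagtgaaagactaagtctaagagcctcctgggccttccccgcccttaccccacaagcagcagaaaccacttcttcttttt

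Over the window that also takes in 50 bases after the start, Cybb held 1 CCAAT, Cyba 0 and Ncf1 0, against 37.4% of 32544 mouse promoters of the same length with at least 1. The Cybb match lies 56 bases before the start, at chrX:9469366-9469390 with its flanks. PU.1, the myeloid factor encoded by Spi1, can recognise sites that hold GAGGAA. These letters (or TTCCTC on the other strand) were found once in Cybb, at base 10 of the transcript, and in neither of the others. GAGGAA occurs in 28.1% of all promoters, and the longer GAGGAAGT (ACTTCCTC), which overlaps it and was absent from all 3, in 3.11%. Other forms of the site were not searched, so their presence before the start is not described. The 2 stretches below show the CCAAT and the GAGGAA match of Cybb, the latter at chrX:9469301-9469325 in the orientation of the gene, with the motif letters in capitals.
Cybb CCAAT: tttcagttggCCAATgattagctaa
Cybb GAGGAA on the other strand: ctgttttcatTTCCTCatcagaaga
The windows also differed in composition. That of Cybb had 1 CG and 35.3% G or C, with fewer CG in 5.4% of promoters, while that of Cyba had 9 CG and 60.7% G or C and that of Ncf1 had 3 CG and 54.0%. The median promoter had 7 CG and 53.0% G or C. A match is a description of letters, and no binding was measured here.

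In the libraries from both virus-treated tumors the 5 genes were higher than in CTX, 4 of them by 30.9-fold to 62.3-fold and Cyba by 3.35-fold and 4.46-fold. The order of the libraries was the same for every one of them, with CTX lowest, then the remote tumor, the MV left tumor and TRP-1MV. Levels are given as TMM-scaled CPM, read counts scaled to the size of each library by a method that sets libraries to a common scale by their bulk of genes. With 1 library per group there is no spread between animals and no p-value. Each log2 ratio carries a 95% exact conditional binomial interval in brackets, which covers counting error only. Calling a gene higher or lower required a ratio of 2 or more and an interval that left out equality. Total counts ran from 12375526 to 21790759 per library. A count of 0 allowed a level of up to 0.151 to 0.222 CPM. The 2 virus-treated libraries stood apart from the other two: they had 17232 and 17436 symbols with a read against 15951 and 15907, and 1.64% and 1.62% of their reads lay in Rn45s, Lars2 and Rpph1 against 0.164% and 0.141%. Whether this bears on the oxidase genes was not tested.

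Cybb (mm10 chromosome X, 9435252 to 9487771, 15 merged exons in GENCODE M21) was counted with 1483 reads in the MV left tumor, 2609 in TRP-1MV, 119 in the remote tumor and 68 in CTX, or 110, 162, 5.98 and 3.55 CPM. The first 2 libraries were far above the others. Against CTX the log2 ratio was 4.95 [4.60, 5.32] in the MV left tumor and 5.51 [5.17, 5.88] in TRP-1MV. In the remote tumor it was 0.75 [0.31, 1.21], which lay above equality and under the 2-fold minimum.

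Cyba (chromosome 8, 122424776 to 122432930, 7 merged exons) encodes the membrane partner that Cybb needs for stability. It was the most counted of the 5 in the remote tumor and CTX, with reads of 902, 1432, 450 and 382 in the same order, or 66.8, 88.9, 22.6 and 19.9 CPM. The 4 libraries ran in the same order as for Cybb over a narrower range. Its log2 ratio against CTX was 1.74 [1.57, 1.92] in the MV left tumor and 2.16 [1.99, 2.32] in TRP-1MV, and 0.18 [-0.02, 0.38] in the remote tumor. The ratio of the MV left tumor to CTX was larger for Cybb than for Cyba by 3.21 [2.81, 3.62] on the log2 scale, a difference that no scaling of the libraries can change.

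The cytosolic organizer Ncf1 (chromosome 5, 134220053 to 134229625, 11 merged exons) had 1007, 1718, 52 and 33 reads, or 74.5, 107, 2.61 and 1.72 CPM. Ncf4 (chromosome 15, 78244801 to 78262580, 11 merged exons), which binds a phosphoinositide of the phagosome membrane, had 437, 687, 24 and 14 reads, or 32.3, 42.7, 1.21 and 0.73 CPM. Both were thinly counted in the remote tumor and CTX. For Ncf1 the log2 ratio against CTX was 5.44 [4.94, 5.98] in the MV left tumor, 5.95 [5.46, 6.50] in TRP-1MV and 0.60 [-0.05, 1.28] in the remote tumor. For Ncf4 it was 5.47 [4.71, 6.35], 5.87 [5.11, 6.75] and 0.72 [-0.29, 1.79]. At this depth no difference of the remote tumor from CTX was detectable for either gene. Ncf1 shares 408 exonic bases with Gtf2ird2 on the opposite strand, and the strand setting of the counting is not given in the sources used here. Gtf2ird2 had 207, 273, 398 and 357 reads, an order of libraries that differs from that of Ncf1.

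Rac2 (chromosome 15, 78559167 to 78572783, 7 merged exons), the Rac GTPase of blood cells, was the most counted member in the virus-treated tumors. It had 2495, 3770, 126 and 72 reads, or 185, 234, 6.33 and 3.75 CPM. Its log2 ratio against CTX was 5.62 [5.28, 5.98] in the MV left tumor, 5.96 [5.63, 6.32] in TRP-1MV and 0.75 [0.32, 1.19] in the remote tumor. Lymphocytes express Rac2 as well as phagocytes do, so it is not a marker of one lineage.

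**Figure D1:**
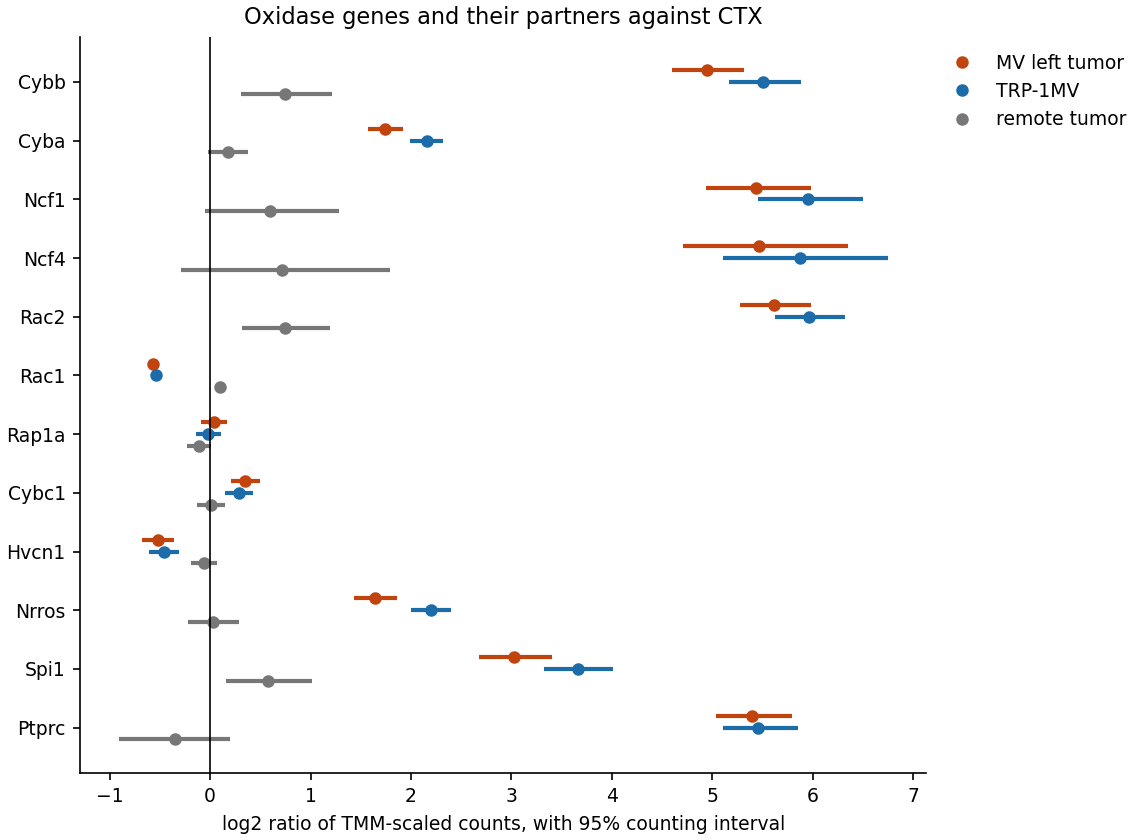
Log2 ratio of TMM-scaled counts against CTX (x axis) for the 5 oxidase genes, 5 genes of their assembly, regulation or activity, Spi1 and Ptprc (y axis). Points are 1 library each against CTX and bars are 95% counting intervals. Cybb, Ncf1, Ncf4 and Rac2 lie at 4.95 to 5.96 in the MV left tumor and TRP-1MV, Cyba at 1.74 and 2.16, and Rac1 and Hvcn1 below 0 in both, though not on housekeeping genes.

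All 5 were called higher in the MV left tumor against CTX, where 18.1% of the genes compared were higher and 11.1% lower, and in TRP-1MV against CTX, where the shares were 18.5% and 11.7%. Their median log2 ratio was 5.44 and 5.87, beside -0.05 and -0.07 over all genes compared. These comparisons share the CTX library and are not independent of each other. In the remote tumor against CTX none of the 5 was called, where 0.457% of genes were higher and 0.247% lower. The intervals of Cybb and Rac2, 2 of the 5, lay above equality there, as did those of 12.1% of all genes compared. The median of the 5 was 0.72, beside -0.00 over all genes.

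Between the injected left tumor and the uninjected right tumor of the same treatment all 5 were again higher on the left, with 18.6% of genes higher and 11.7% lower. The log2 ratio was 4.20 [3.93, 4.48] for Cybb, 4.83 [4.43, 5.27] for Ncf1, 4.75 [4.15, 5.40] for Ncf4, 4.87 [4.61, 5.14] for Rac2 and 1.56 [1.40, 1.73] for Cyba. Cyba again had the smallest ratio. TRP-1MV against the remote tumor also had 5 of 5 higher, with 18.8% of genes higher and 12.1% lower and a median of 5.14 for the 5 genes.

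The 2 virus-treated libraries differed less from each other. TRP-1MV exceeded the MV left tumor by 0.56 [0.47, 0.65] for Cybb, 0.52 [0.40, 0.63] for Ncf1, 0.41 [0.29, 0.54] for Cyba, 0.40 [0.22, 0.58] for Ncf4 and 0.34 [0.27, 0.42] for Rac2, all on the log2 scale. None reached a ratio of 2, as 0.562% of genes did upward and 0.217% downward. All 5 intervals lay above equality, against 11.0% of the genes compared. Whether this exceeds the difference between animals cannot be told from 1 library each.

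**Figure D2:**
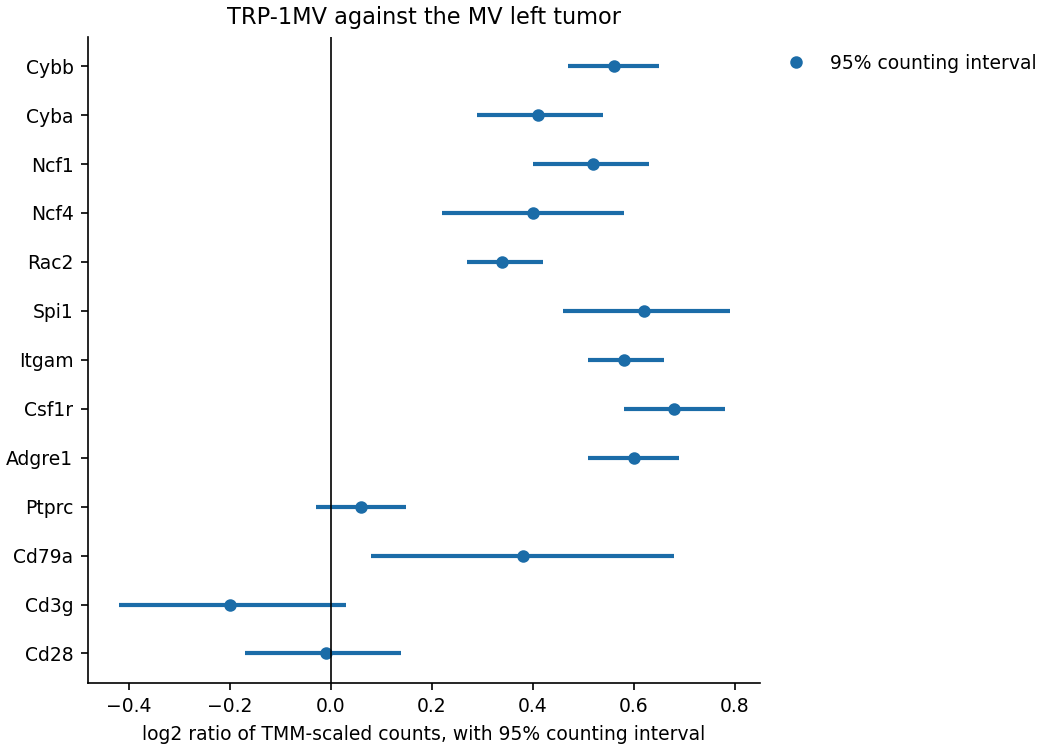
Log2 ratio of TMM-scaled counts in TRP-1MV against the MV left tumor (x axis) for the oxidase genes, Spi1 and marker genes (y axis). Points are the ratio of the 2 libraries and bars are 95% counting intervals. The oxidase genes lie at 0.34 to 0.56, the myeloid genes Itgam, Csf1r and Adgre1 at 0.58 to 0.68, and Ptprc, Cd3g and Cd28 at -0.20 to 0.06. The B cell gene Cd79a lies within the range of the oxidase genes. The markers shown are examples: over the whole lists, macrophage markers ran from -0.59 to 0.70 and T cell markers from -0.20 to 0.20. B cell markers ran from -0.21 to 0.38 and pan leukocyte genes from 0.06 to 0.51.

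Per kilobase of merged exons, the scale on which different genes can be compared, the makeup of the 5 genes differed between the libraries. In CTX Cyba stood at 19.2 CPM per kb and the other 4 at 0.361 (Ncf4), 0.470 (Ncf1), 0.611 (Cybb) and 1.21 (Rac2), so that Cyba made up 87.8% of their sum of 21.8. In the remote tumor the sum was 26.1 and the share of Cyba 83.2%. In the MV left tumor the sum was 179, with 35.9% from Cyba (64.2), 33.2% from Rac2 (59.5), 11.4% from Ncf1 (20.3), 10.6% from Cybb (18.9) and 8.94% from Ncf4 (16.0). TRP-1MV had a sum of 239 and nearly the same makeup, with Cyba at 35.8%, Rac2 at 31.5%, Ncf1 at 12.2%, Cybb at 11.7% and Ncf4 at 8.83%. Cyba therefore led in all 4 libraries. Rac2 was next and Ncf4 last in each, while Cybb stood above Ncf1 in CTX and the remote tumor and below it in the virus-treated tumors. With the length of the longest transcript in place of merged exons the share of Cyba was 89.7% in CTX and 40.5% in the MV left tumor, and the ranks did not change.

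**Figure D3:**
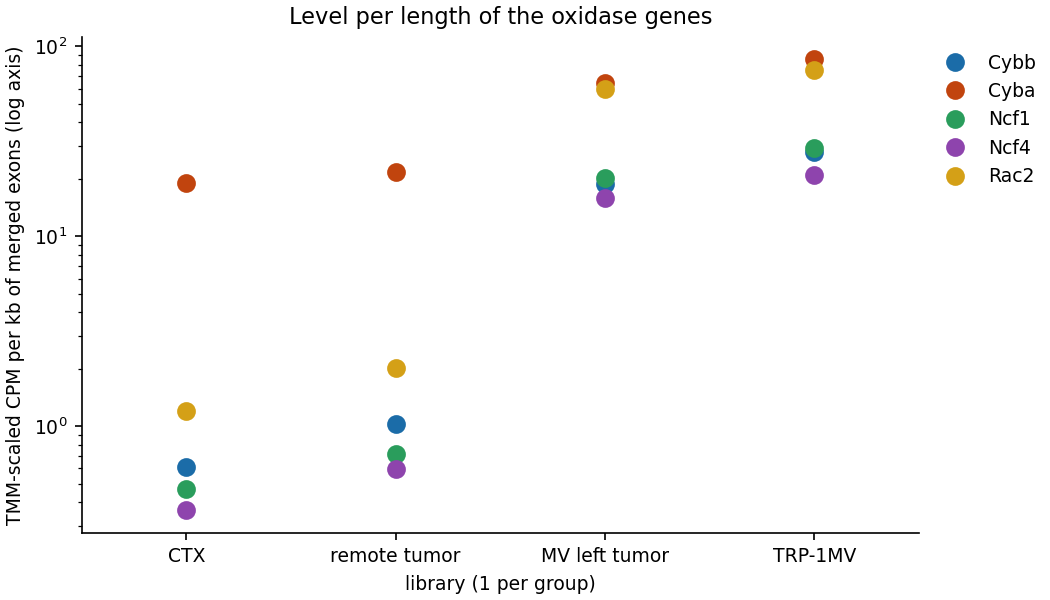
TMM-scaled CPM per kilobase of merged exons on a log axis (y axis) in each of the 4 libraries (x axis), 1 point per gene. Cyba stays between 19.2 and 85.6 while Cybb, Ncf1, Ncf4 and Rac2 run from 0.361 to 1.21 in CTX up to 21.1 to 75.4 in TRP-1MV.

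**Figure D4:**
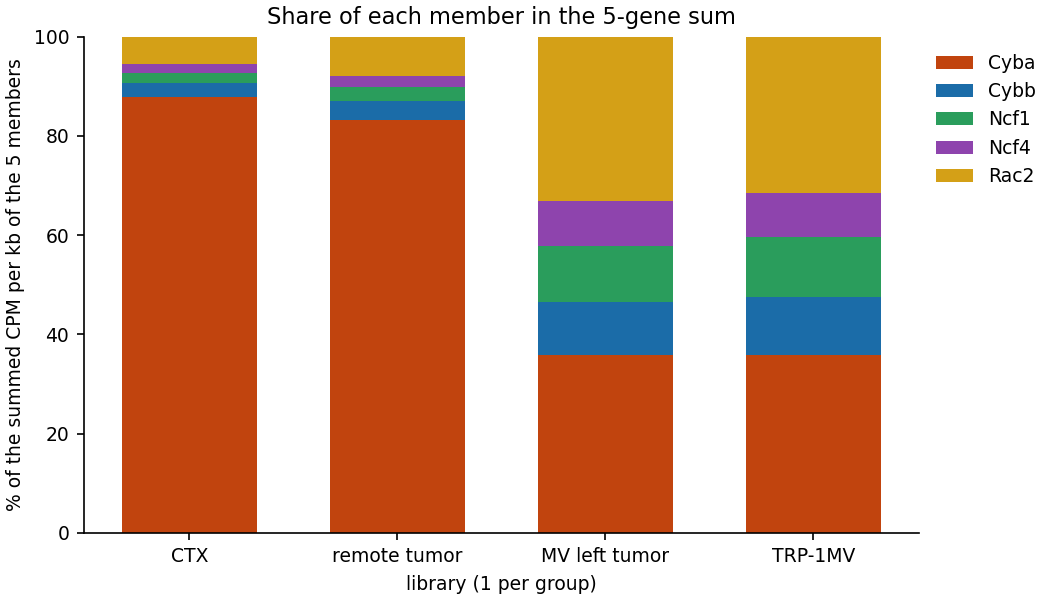
Share of each of the 5 genes in their summed CPM per kilobase (y axis, percent) in each library (x axis). Cyba makes up 87.8% in CTX and 83.2% in the remote tumor but 35.9% and 35.8% in the MV left tumor and TRP-1MV, where Rac2 takes 33.2% and 31.5%.

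Rac1, the widely expressed relative of Rac2, had 6441, 7818, 15107 and 13553 reads. Its log2 ratio against CTX was -0.57 [-0.61, -0.53] in the MV left tumor and -0.54 [-0.58, -0.50] in TRP-1MV. It was 0.04 and 0.05 when libraries were scaled on housekeeping genes, so its direction turned with the scale. Those 16 genes were not level on the TMM scale. In the MV left tumor against CTX their median was -0.70, from -1.45 to 0.63, and 6 were called lower. On the housekeeping scale 4252 of 13357 genes were higher against CTX and 431 lower in the MV left tumor. In TRP-1MV these were 4142 and 472. The same shift enters every count given below on that scale. Which scale is closer to the true levels was not tested. The gap between the 2 GTPases did not depend on the scale: the Rac2 ratio exceeded that of Rac1 by 6.19 [5.85, 6.55]. Rac1 and Rac2 have similar coding sequences, and how reads that fit both were counted is not given in the sources used here.

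Of all genes compared, 18.1% were higher and 11.1% lower in the MV left tumor against CTX, and 18.5% and 11.7% in TRP-1MV. In the remote tumor against CTX 0.457% were higher and 0.247% lower. These shares stand beside this list and those that follow. Of 13 genes for assembly of the oxidase and its accessory proteins, 5 were higher and 1 lower in the MV left tumor against CTX. Their median log2 ratio was 0.35. In TRP-1MV 5 were higher and 1 lower, with a median of 0.29. On housekeeping genes the counts were 6 and 0 in both, since Rap1b passed the 2-fold minimum and Prdx6 no longer did. The genes called higher were Cd33 (log2 ratio 6.62 [5.25, 8.51]), a myeloid lectin receptor, and Nckap1l (4.81 [4.45, 5.19]), the blood-cell subunit of an actin regulatory complex that takes signals from Rac, as well as Nrros and the calgranulin pair. Nrros, whose protein binds gp91phox and limits oxidase output, had 561, 981, 271 and 255 reads and ratios of 1.64 [1.43, 1.86] and 2.20 [2.00, 2.40]. S100a8 and S100a9 encode the arachidonate-binding calgranulins of neutrophils. S100a8 had 48, 75, 0 and 0 reads, at least 22.7-fold higher in the MV left tumor than a floor of 3 counts in CTX. S100a9 had 51, 140, 1 and 2, a log2 ratio of 5.18 [3.25, 8.26]. Cd33, S100a8 and S100a9 had 5 reads or fewer in the remote tumor and CTX and reached the minimum only through the virus-treated libraries. Their call as higher was thus set by the minimum. Prdx6, a peroxiredoxin with phospholipase activity, was lower, at -1.07 [-1.14, -0.99] and -1.15 [-1.22, -1.08].

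The remaining partners were not called in either virus-treated tumor. Cybc1, the chaperone needed to make gp91phox and p22phox protein, had log2 ratios of 0.35 [0.21, 0.50] and 0.29 [0.15, 0.43], and Rap1b, a small GTPase found with the membrane core, 0.73 in both. Rap1a stood at 0.04 and -0.02. Hvcn1, the proton channel that balances the charge moved by the enzyme, had -0.52 and -0.46, the Rac inhibitor Arhgdib had -0.50 and -0.28, and both turned positive on housekeeping genes. Arhgdia, a Rac inhibitor found in most cells, had -0.74 and -0.62. Genes of the same machinery thus ranged from below their level in CTX to far above it. None of the 13 was called in the remote tumor.

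Receptors and kinases that activate the oxidase were mostly higher. In the MV left tumor 16 of 23 were higher and 1 lower, with a median log2 ratio of 3.57, beside -0.05 over all genes compared. In TRP-1MV 17 of 23 were higher and 0 lower, with a median of 4.07, beside -0.07. The largest ratios were those of Fpr1, the receptor for formylated bacterial peptides, and Pik3cg, a phosphoinositide kinase downstream of such receptors. Fpr1 had 430, 799, 4 and 0 reads, and was at least 203-fold higher in the MV left tumor than the floor in CTX. Fpr1, and Fpr2 and Vav3 of the same list, had 5 reads or fewer in the remote tumor and CTX. They reached the minimum only through the virus-treated libraries, which set their call as higher. Pik3cg had a log2 ratio of 6.30 [5.45, 7.31]. At the other end, Pld1, a phospholipase, was lower in the MV left tumor at -1.12 [-1.36, -0.88] and Irak4, a kinase of Toll-like receptor signalling, stood at -0.70 without a call. On housekeeping genes no gene of the list was lower. In the remote tumor 0 of 23 were called.

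Spi1, which encodes PU.1, had 450, 827, 121 and 78 reads, the same order of libraries as the 5 genes. Its log2 ratio against CTX was 3.03 [2.68, 3.40] in the MV left tumor, 3.66 [3.32, 4.01] in TRP-1MV and 0.58 [0.16, 1.01] in the remote tumor. The transcription factors known to act on oxidase genes numbered 10 past the minimum, as Cebpe did not reach it. In each virus-treated tumor 7 of the 10 were higher and 0 lower, with medians of 1.29 and 1.44. All 10 were higher on housekeeping genes, a scale on which 4252 and 4142 of 13357 genes were higher. Irf8, a factor of monocytes and dendritic cells, had the highest ratio at 3.82 [3.55, 4.11] and Spi1 the next. Runx1 (0.57) and Nfkb1 (0.73) had the lowest and were not called.

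Among the other NADPH oxidases and their organizers 6 of 12 genes passed the minimum, of which 1 was higher and 3 lower in the MV left tumor, while TRP-1MV had 1 of each. The higher one was Noxo1, the organizer homologous to Ncf1, with 99, 138, 61 and 70 reads and log2 ratios of 1.01 [0.55, 1.47] and 1.23 [0.81, 1.67]. Nox4, a form of the enzyme that works without cytosolic subunits, had 15, 22, 46 and 45 reads and -1.08 [-2.03, -0.21] and -0.78 [-1.59, -0.01]. Duox1 had 10, 11, 39 and 38 reads and -1.42 [-2.59, -0.39] and -1.54 [-2.65, -0.54]. These counts were small, and none was lower on housekeeping genes. Sh3pxd2b, a scaffold related to the organizers, stood at -1.11 and -0.81, Poldip2 at -0.89 and -0.77, and Sh3pxd2a at -0.66 and -0.76. Below the minimum, Duoxa1 had 6, 5, 1 and 2 reads, Nox1 1, 1, 2 and 0, Duox2 0, 2, 2 and 2, and Duoxa2 0, 2, 0 and 0. Nox3 and Noxa1 had 0 reads in every library.

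Most genes that remove oxidants or supply NADPH were not called, which was also true of most of the 13357 genes compared. Of 22 antioxidant and peroxidase genes compared, 1 was higher and 4 lower in the MV left tumor, with a median of -0.36, and 2 and 5 in TRP-1MV, with a median of -0.27. On housekeeping genes these became 3 and 0, and 4 and 0, and the medians 0.25 and 0.32. The heme-degrading enzyme Hmox1 was higher on both scales, with 2501, 4090, 1708 and 1622 reads and log2 ratios of 1.13 [1.04, 1.22] and 1.59 [1.50, 1.67]. Prdx5 had the next highest ratio, 0.87. Prdx1 and Prdx3 had the lowest, both -1.26. In the NADPH supply list 0 of 12 were higher and 1 was lower in each virus-treated tumor, with medians of -0.54 and -0.47, or 0.06 and 0.13 on housekeeping genes. Idh2, which makes NADPH in mitochondria, was the lower one at -1.59 [-1.67, -1.51] and -1.65 [-1.72, -1.57]. On housekeeping genes Idh2 was at -0.99 in the MV left tumor, no longer called, and at -1.05 in TRP-1MV, still called. Tkt, of the pentose phosphate pathway, had -0.84, and Rpia (0.18) and Rpe (-0.03) had the highest ratios.

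**Figure D5:**
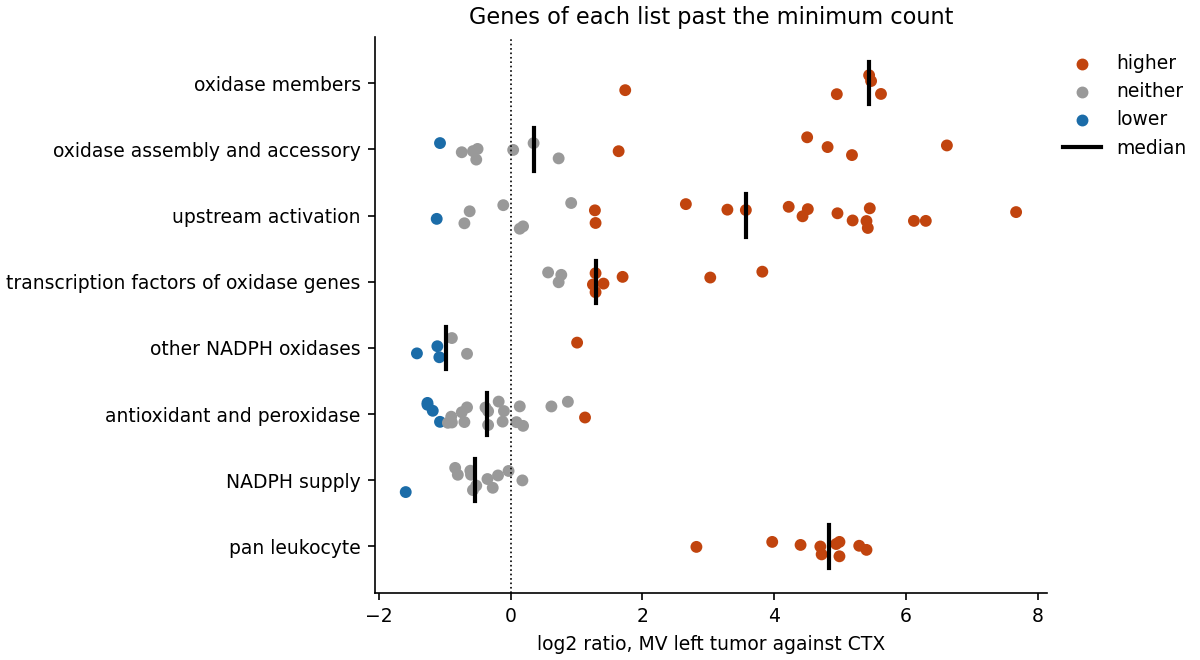
Log2 ratio of the MV left tumor against CTX (x axis) for each gene past the minimum in the 5 oxidase genes, the 6 lists around them and the pan leukocyte list (y axis). Points are genes, colored by call, and bars are list medians. The 5 oxidase genes have a median of 5.44 and the pan leukocyte genes 4.83, against 0.35 for assembly and accessory genes and -0.54 for NADPH supply, which is 0.06 on housekeeping genes.

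Pan leukocyte genes, like the oxidase genes, were higher in the virus-treated tumors than in CTX. In the remote tumor against CTX the pan leukocyte median log2 ratio was 0.05, beside 0.72 for the oxidase genes. All 10 pan leukocyte genes were higher in each virus-treated tumor, with medians of 4.83 and 5.17, and their summed level was 1709 CPM in the MV left tumor, 2112 in TRP-1MV, 79.0 in the remote tumor and 75.1 in CTX. Ptprc, the common leukocyte antigen, had 1909, 2372, 52 and 64 reads and log2 ratios against CTX of 5.40 [5.04, 5.79] and 5.46 [5.11, 5.85], the former being the highest of the list, whose range was 2.82 to 5.40 in the MV left tumor. In a bulk tumor fewer cells of a type and less RNA per cell cannot be told apart. The ratio of the MV left tumor to CTX differed from that of Ptprc by 0.22 [-0.30, 0.73] for Rac2, 0.03 [-0.61, 0.70] for Ncf1 and -0.45 [-0.98, 0.07] for Cybb, intervals that all include 0. Other references gave intervals that leave out 0. Against the myeloid gene Itgam the differences were -0.79 [-1.40, -0.20] for Rac2, -0.97 [-1.70, -0.25] for Ncf1 and -1.46 [-2.08, -0.86] for Cybb. Against Csf1r, the receptor for the macrophage growth factor, they were 1.21 [0.71, 1.70], 1.02 [0.40, 1.67] and 0.54 [0.04, 1.04]. In this comparison these 3 genes thus lay below one myeloid marker and above another. For Ncf4 the differences were 0.07 [-0.80, 1.03] from Ptprc, -0.94 [-1.87, 0.07] from Itgam and 1.05 [0.20, 2.00] from Csf1r. In TRP-1MV against CTX the difference of Cybb from Csf1r, 0.42 [-0.07, 0.92], included 0. It also did in the MV left tumor against the remote tumor, at 0.35 [-0.05, 0.74]. In that last comparison the differences from Ptprc were -0.89 [-1.39, -0.40] for Rac2, -0.92 [-1.52, -0.33] for Ncf1 and -1.56 [-2.07, -1.07] for Cybb. For Ncf4 it was -1.01 [-1.75, -0.23]. For Cyba, in the MV left tumor against CTX, the difference from Ptprc was -3.66 [-4.08, -3.25]. It was also below 0 against Itgam (-4.67) and Csf1r (-2.67). When libraries were scaled on the pan leukocyte genes, none of the 5 was called higher in the MV left tumor against CTX and Cyba was lower, at -2.88.

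Macrophage and monocyte markers were higher for 13 of 16 genes in the MV left tumor and 14 of 16 in TRP-1MV. Their summed levels were 1068, 1535, 117 and 95.2 CPM in the order MV left tumor, TRP-1MV, remote tumor, CTX. Among them Cx3cr1, with 22, 37, 3 and 1 reads, reached the minimum only through the virus-treated libraries. Of 14 neutrophil markers 7 passed the minimum and were higher in both, with summed levels of 183, 290, 1.81 and 1.36 CPM. All but Csf3r (79, 113, 25 and 11 reads) reached the minimum only through the virus-treated libraries, which set their call as higher. In the remote tumor 8 of the 14 had 0 reads and in CTX 6 of the 14. The neutrophil sum was mostly the collagenase gene Mmp8, at 143 CPM in the MV left tumor and 229 in TRP-1MV. Mmp9 had 157, 273, 7 and 8 reads, Ngp 125, 237, 0 and 0, and Ltf 56, 105, 0 and 0. Ly6g, the defining surface marker, had 1, 3, 0 and 1 reads, and Retnlg (0, 1, 0 and 0) and Cxcr1 (2, 0, 0 and 1) were also near 0 in every library. B cell markers, another lineage with the oxidase, were at 56.8, 59.5, 0.904 and 0.939 CPM, and T cell markers at 285, 282, 9.35 and 9.49. The 7 eosinophil markers summed to 2.59, 3.97, 0.100 and 0.104 CPM. Dendritic cell markers summed to 163, 227, 10.6 and 10.7 CPM, and NK cell markers to 15.3, 14.7, 2.51 and 2.50. The dendritic sum was mostly Ccr7 (104 CPM in the MV left tumor) and the NK sum mostly Klrk1 and Eomes, which T cells also express. Of the other NK markers Ncr1 had 1, 4, 3 and 3 reads, Klrb1c 3, 3, 2 and 2, Klre1 9, 7, 0 and 1, and Klra8 0 in every library. The pigment genes of the tumor cells were lower for 10 of 12 in each virus-treated tumor, with summed levels of 6127, 5734, 26450 and 25980 CPM. The part of these cell types in the oxidase ratios was not tested.

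For the smaller differences the choice of reference gene mattered. Between TRP-1MV and the MV left tumor Ptprc had a log2 ratio of 0.06, the lowest of the 10 pan leukocyte genes (0.06 to 0.51, median 0.32), and Cybb exceeded it by 0.50 [0.37, 0.63], Ncf1 by 0.46 [0.31, 0.60] and Rac2 by 0.28 [0.17, 0.40]. Against the myeloid integrin gene Itgam the difference was -0.02 [-0.14, 0.10] for Cybb, -0.07 [-0.20, 0.07] for Ncf1 and -0.24 [-0.35, -0.14] for Rac2. At 0.34 Rac2 lay near the median of the pan leukocyte list, below Laptm5 (0.43), Itgb2 (0.49) and Cd52 (0.51). Scaled on that list, the ratio was 0.25 [0.16, 0.34] for Cybb, 0.21 [0.09, 0.32] for Ncf1 and 0.03 [-0.04, 0.10] for Rac2. Ncf4 and Cyba were at 0.09 [-0.09, 0.26] and 0.10 [-0.02, 0.22] on that scale. Between the remote tumor and CTX Ptprc stood at -0.35 [-0.91, 0.20], again the lowest of its list (median 0.05, highest 0.48), and both Cybb and Rac2 exceeded it by 1.11, with intervals of 0.39 to 1.83 and 0.40 to 1.82. Scaled on the whole list, both were at 0.70. Against Csf1r the difference was 0.19 for both, with intervals of -0.43 to 0.82 and -0.42 to 0.81. Macrophage markers summed to 117 CPM in the remote tumor and 95.2 in CTX, with 2 of 16 markers, Adgre1 (1.09) and Cd14 (1.61), called higher. Of all genes compared 0.457% were called higher there and 0.247% lower.

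The genes with the most similar pattern were sought by the largest absolute difference over the 3 log2 ratios against CTX, given here in parentheses, among 12324 genes in 4 libraries. For Ncf1 they were Cd83 (0.06), P2ry14 (0.08) and Slco4a1 (0.09), for Rac2 Snx20 (0.07), Slco4a1 (0.15) and Ncf4 (0.15), and for Ncf4 Cd69 (0.08), Ncf1 (0.12) and Cd83 (0.15). Ncf1, Ncf4 and Rac2 therefore appeared in each other's lists or shared neighbors. Such distances were small beside the counting intervals of the ratios, which for Ncf4 ran from 4.71 to 6.35 in the MV left tumor. For Ncf4 in the remote tumor they ran from -0.29 to 1.79. Which genes rank nearest is thus not resolved by the counts. Those of Cybb were Lox (0.12), C3 (0.15) and Nod2 (0.15). Those of Cyba were Creb5 (0.14), Basp1 (0.15) and Mfhas1 (0.15), none of which was listed for another member. With Euclidean distance the 3 genes were the same for Ncf1 and Rac2, 2 of 3 were the same for Cybb and Ncf4, and 1 of 3 for Cyba.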

How the data were processed

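RNA-seq was analysed in 4 libraries, 1 per group. The authors deposited raw counts, whole numbers per gene symbol that were not normalized. Alignment with HISAT2, counting with featureCounts and build mm10 are named in the submitters' processing notes. The sources used here do not give their versions, the annotation or the strand setting. Counts were scaled with TMM (edgeR 4.0.16, R 4.3.3) and expressed as CPM. Ratios carry 95% Clopper-Pearson intervals from Python 3.11.15 (pandas 2.3.3, scipy 1.17.1, numpy 2.4.6), and figures used matplotlib 3.10.9. Differences between the ratios of 2 genes carry the conditional exact interval of the odds ratio. A library at 0 reads was set to a floor of 3 counts and its ratio called a bound. All 6 pairs of libraries were compared. Positions came from GENCODE M21, in which 24321 of 25239 symbols had 1 position, and promoters from RefSeq on GRCm38.p6, which held 3 of the 5 genes. The script was tested on simulated data.

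The members, the 16 further gene lists and the comparisons were chosen with earlier results of these data known. The genes named were the members, all assembly and other oxidase genes with a count, the 2 highest and 2 lowest of each other list around the oxidase, the 3 nearest genes of each member, Spi1 and Ptprc. Some genes that this rule names are left out of the lists and not reported. Cell markers, the CCAAT motif, the reference genes Itgam and Csf1r and Gtf2ird2 were added after the data were seen. Alternatives were scaling on housekeeping genes, pan leukocyte genes, upper-quartile factors, total counts or DESeq2 1.42.0 size factors, TMM without ribosomal and abundant noncoding genes, no minimum count, a mean of 50, a ratio of 4, an interval excluding a ratio of 2, and thinning to the smallest total.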

Additional observations from a re-analysis of the deposited data

How the results depend on the processing

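No paired analysis was possible because there was a single library in each group, and leaving out a replicate was likewise not run. Over 11 settings and 6 comparisons 61 of 66 counts of called oxidase genes were within 1.5 times the reported count. Part of this was fixed in advance: all 5 genes passed a mean of 50, so changing the minimum could not move a count. In the remote tumor against CTX and TRP-1MV against the MV left tumor the reported count was 0, which only a new call could move. Of the other 5, scaling on the pan leukocyte genes moved 4 and thinning moved 1. On the pan leukocyte scale the number called higher was 0 in the MV left tumor against CTX, 2 in TRP-1MV against CTX (Ncf1 and Rac2), 0 in the MV left tumor against the remote tumor and 0 in TRP-1MV against the remote tumor, and Cyba was lower in all 4, at -2.88, -2.77, -3.01 and -2.90. Cybb was at -0.37 and -0.12 in the MV left tumor and TRP-1MV against the remote tumor on that scale. It subtracts from every ratio by construction: the change was -4.62 in the MV left tumor against CTX. Thinning to the smallest total, in 1 random draw, gave 2 called genes in the remote tumor against CTX, Cybb at 1.13 and Ncf1 at 1.16, while Rac2 was at 0.38 [-0.17, 0.93] and no longer above equality, and the cause was not tested. Housekeeping scaling added 0.61 and total counts 0.24 to each log2 ratio of the MV left tumor against CTX. Depth limited the remote tumor and CTX, where Ncf4 had 24 and 14 reads.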
